A study of Mus musculus with 9 samples.

Results

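The genes described here are 10 mouse genes of the muscle atrophy programme, read across gastrocnemius libraries of 2 muscle knockouts of p38 kinases and their controls. They were chosen by name, with earlier results of these data known. All 10 had a row among the 13179 genes of the deposited table and passed the low-value filter, as did 13137 genes in all. They comprise 4 F-box genes (Fbxo32, Fbxo30, Fbxo40 and Fbxo31), the 3 muscle RING-finger genes (Trim63, Trim54 and Trim55) and 3 forkhead transcription factors (Foxo1, Foxo3 and Foxo4). Polyadenylated RNA of the gastrocnemius, a fast-fibre muscle of the calf, was sequenced as 51-base single reads in 3 groups of 3 libraries. The p38α KO group carries the genotype label p38alphaMCK-KO and lacks p38α, the stress-activated kinase encoded by Mapk14, in muscle. The p38α/γ KO group (p38alpha/gammaMCK-KO) lacks in addition p38γ, encoded by Mapk12. The third group is labelled control, and the labels give neither its alleles nor the age or sex of any animal. MCK usually stands for the muscle creatine kinase promoter, which drives Cre in skeletal and cardiac muscle fibres, so that other cells of the muscle would keep both kinases. Mice of every group had eaten a high-fat diet for 6 weeks. The labels number the samples 1 to 3 in each group and do not call them separate animals; the p-values below rest on the differences between libraries alone.

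Muscle loses mass when protein breakdown outruns synthesis, and much of that breakdown runs through ubiquitin ligases that mark contractile and regulatory proteins for the proteasome. F-box proteins are the substrate-binding subunits of SCF ligases, which also hold Skp1, Cul1 and Rbx1, whereas the muscle RING-finger (MuRF) proteins are ligases in their own right and bind titin at the M-line. FoxO factors drive transcription of several of these ligases when they are in the nucleus. Akt phosphorylation, downstream of insulin and IGF-1, holds them in the cytoplasm, so FoxO activity is set largely by protein modification, which RNA levels do not show.

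Promoter sequence was available from RefSeq (GRCm38.p6) for 7 of the 10 genes: Foxo1, Trim63, Trim54, Fbxo31, Fbxo30, Foxo3 and Fbxo40. The 250 bases before the annotated start were searched on both strands for the forkhead core TGTTTAC (reverse complement GTAAACA), which 3.17% of 32851 such mouse windows hold, and for the E-box CAGCTG (the same on both strands, and not overlapping the forkhead core), which 13% hold. CAGCTG is a form of the E-box bound by myogenic regulators such as MyoD. Trim63 is shown because its RNA varied most between libraries, and Fbxo40 because it was lower in both knockouts. Both windows are printed on the transcribed strand with the matches in capitals. The Trim63 window is chr4:134314870-134315119, plus strand, and the Fbxo40 window is chr16:36990468-36990717, minus strand.
Trim63: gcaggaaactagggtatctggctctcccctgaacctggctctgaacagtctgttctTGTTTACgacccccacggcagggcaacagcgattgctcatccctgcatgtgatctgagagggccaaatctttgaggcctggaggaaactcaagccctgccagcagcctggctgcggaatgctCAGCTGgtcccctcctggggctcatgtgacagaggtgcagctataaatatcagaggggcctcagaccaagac
Fbxo40: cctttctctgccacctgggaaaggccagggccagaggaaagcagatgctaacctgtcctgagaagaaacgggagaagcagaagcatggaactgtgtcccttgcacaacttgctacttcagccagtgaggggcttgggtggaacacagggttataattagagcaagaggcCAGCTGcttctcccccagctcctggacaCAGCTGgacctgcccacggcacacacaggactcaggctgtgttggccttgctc
In the Trim63 window the forkhead core begins 194 bases before the start and the E-box 72 bases before it. The printed Fbxo40 window held E-boxes beginning 81 and 53 bases before the start and no match to the forkhead core. A window at another RefSeq start of Fbxo40 (chr16:36979137-36979386, minus strand, not printed) held 1 E-box, 89 bases before that start, and no forkhead core. Of the other genes with a window, Trim54 held 1 E-box, 113 bases before its start, and Foxo1, Foxo3, Fbxo30 and Fbxo31 held neither motif within 250 bases.

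Values are the normalised counts the authors deposited. A change passed, or was called, at a limma adjusted p below 0.05 on the log2(value + 1) scale, adjusted over all tested genes. The targeted genes were lower where the labels name them. Mapk14 measured 43.8, 45.5 and 40.3 in the p38α KO and 54.7, 37.0 and 42.7 in the p38α/γ KO, against 143, 149 and 157 in the controls. Mapk12 measured 96.5, 103 and 105 in the p38α KO and 31.2, 35.5 and 32.8 in the p38α/γ KO, against 140, 138 and 152 in the controls, so it was also 1.41-fold lower in the p38α KO (adjusted p = 0.00601), whose label names p38α alone. The normalised values state no depth. If their steps are whole reads plus 0.5, which no source used here says, the depth was 23.8 to 27.9 M reads per library. Library 1 of the p38α KO stood apart from the rest of its group, with correlations across genes of 0.976 and 0.960 with libraries 2 and 3, while every other pair within a group lay between 0.987 and 0.993. For the 10 atrophy genes, calls that change when that library is left out are given with and without it. Companion lists are also counted without it, while the fits of single companion genes use all libraries. These lists and the marker lists were chosen with earlier results of these data known, so their shares beside all tested genes are descriptive only. The 8 fibre markers (Ckm, Acta1, Myh4 and others) summed to 98220, 141100 and 155400 in p38α KO libraries 1, 2 and 3, to 126000 to 130300 in the p38α/γ KO and to 173100 to 187100 in the controls, so RNA of fast fibres was the bulk of every library's marker signal. The 12 macrophage markers (Cd68, Adgre1, Csf1r and others) ran the other way, at 363, 271 and 159 in the p38α KO and 173 to 335 in the p38α/γ KO, against 83.5 to 116 in the controls. Of these, 10 were called higher in the p38α KO, 11 were in the p38α/γ KO, and no fibre or macrophage marker was at the lowest value of its library. Of the 8 fibre markers, 1 was called lower in the p38α KO and 0 were in the p38α/γ KO, beside 10.4% and 14.4% of all tested genes. Values of 7 and 6 of these 8 did not overlap the controls, beside 38.6% and 55% of all tested genes. The 8 markers of fibro-adipogenic progenitors (Pdgfra, Dcn and others) summed to 1910 to 2927 in the p38α KO and 2516 to 3472 in the p38α/γ KO, against 1680 to 2178 in the controls. Among them, 1 was called higher in the p38α KO and 5 were in the p38α/γ KO, beside the same 7.32% and 11.2%. In bulk RNA, fewer cells of a type and less RNA per cell cannot be told apart, and the part of these marker lists in the results on the atrophy genes was not tested.

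The most even result among the 10 genes was a fall of Fbxo40 in both knockouts. Fbxo40 encodes a muscle-restricted F-box protein that targets the insulin receptor substrate IRS1 for breakdown after IGF-1 signalling (ENSMUSG00000047746; chromosome 16, 36963460 to 36990467, minus strand, GRCm38). Its normalised value was 272, 306 and 279 in p38α KO libraries 1, 2 and 3 and 282, 312 and 319 in the p38α/γ KO, against 444, 469 and 492 in the controls. Every knockout library lay below every control library, and the knockout groups overlapped each other. The p38α KO mean was 286 ± 18.1 and the p38α/γ KO mean 305 ± 19.6, against 468 ± 24.0 in the controls (SD, n = 3 each). The fall was 1.64-fold in the p38α KO (log2 −0.71, SE 0.0880, limma adjusted p = 0.00185) and 1.53-fold in the p38α/γ KO (log2 −0.62, SE 0.0880, adjusted p = 0.00389). Between the knockouts the difference was log2 −0.09 (95% interval −0.29 to 0.10, adjusted p = 0.708). Fbxo40 was also the only one of the 10 genes to pass the limma test in both knockouts in all 20 alternative settings. Its p38α KO change without library 1 of that group was log2 −0.67 (adjusted p = 0.00145).

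**Figure D1:**
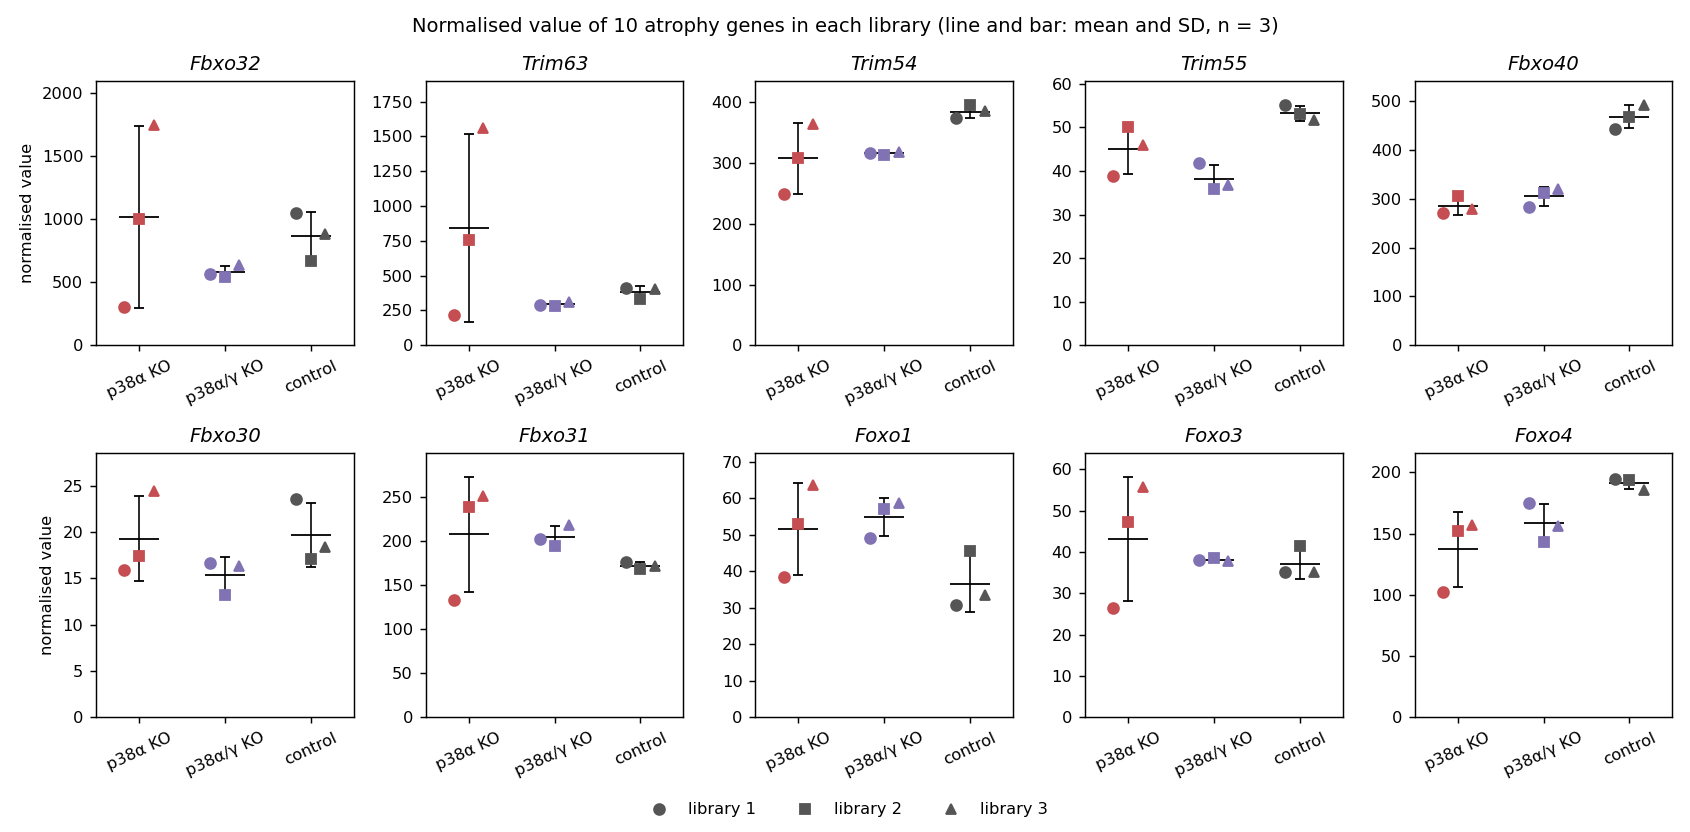
Normalised value (vertical axis, from 0, a separate scale for each gene) of the 10 atrophy genes in the p38α KO, the p38α/γ KO and the control; each symbol is 1 library, and lines with bars give the mean and SD of 3. Fbxo40 in both knockouts sits below all controls, and the p38α KO libraries of Fbxo32 and Trim63 spread from 301 to 1747 and from 217 to 1559.

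Fbxo32 and Trim63, the genes most used as markers of atrophy, did not pass the test in either knockout. Their p38α KO libraries lay on both sides of the controls. Fbxo32 encodes atrogin-1 (MAFbx), an F-box protein raised in fasting, denervation and disuse, with MyoD and a translation initiation factor subunit among its substrates (ENSMUSG00000022358; chromosome 15, 58175879 to 58214932, minus strand). Fbxo32 measured 301, 1000.2 and 1747 in p38α KO libraries 1, 2 and 3 and 563, 542 and 633 in the p38α/γ KO, against 1046, 669.8 and 884 in the controls. Library 1 of the p38α KO was the lowest of all 9 and library 3 the highest, whereas all 3 p38α/γ KO libraries lay just below the lowest control. The p38α KO change was log2 −0.08 (95% interval −1.19 to 1.04, limma adjusted p = 0.930), and the p38α/γ KO change was log2 −0.56 (95% interval −1.67 to 0.55, adjusted p = 0.417). Because all 9 libraries share 1 estimate of spread, the wide p38α KO group also widens the interval of the p38α/γ KO comparison. In a fit of the p38α/γ KO and control libraries alone the same log2 −0.56 passed (adjusted p = 0.0164).

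Trim63 encodes MuRF1, the ligase that marks myosin heavy chain and other thick-filament proteins (ENSMUSG00000028834; chromosome 4, 134315120 to 134329629, plus strand). Its values were 217, 753 and 1559 in p38α KO libraries 1, 2 and 3 and 288, 284 and 310.3 in the p38α/γ KO, against 410.4, 330.6 and 407 in the controls. As for Fbxo32, p38α KO library 1 lay below all controls, here with libraries 2 and 3 above them, and the p38α/γ KO libraries lay below the controls without overlap. Library 3 was 4.07 times the control mean, and the control mean was 1.76 times library 1. The change was log2 0.74 in the p38α KO (95% interval −0.47 to 1.94, limma adjusted p = 0.363) and −0.37 in the p38α/γ KO (95% interval −1.57 to 0.83, adjusted p = 0.624). The smaller p38α/γ KO change passed in a fit of the 6 p38α/γ KO and control libraries (adjusted p = 0.0128). With p38α KO library 1 left out, the p38α KO change was log2 1.51 (adjusted p = 0.00364), while Fbxo32 at log2 0.63 still missed the threshold (adjusted p = 0.0872).

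The spread of these genes within the p38α KO was itself far from typical. The SD of log2(value + 1) over the 3 p38α KO libraries was 1.29 for Fbxo32 and 1.43 for Trim63, wider than that of 99.7% and 99.8% of all tested genes, where the median was 0.199. The highest library was 5.80 times the lowest for Fbxo32 and 7.17 times for Trim63. In the p38α/γ KO the same genes had SDs of 0.117 and 0.0694, against a median of 0.125, and in the controls 0.324 and 0.177, against a median of 0.103. Foxo3 (SD 0.547, wider than 93.6% of tested genes) and Fbxo31 (0.507, wider than 91.8%) were next in the p38α KO, and Fbxo40 was narrow (0.0899, wider than 16.0%).

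**Figure D2:**
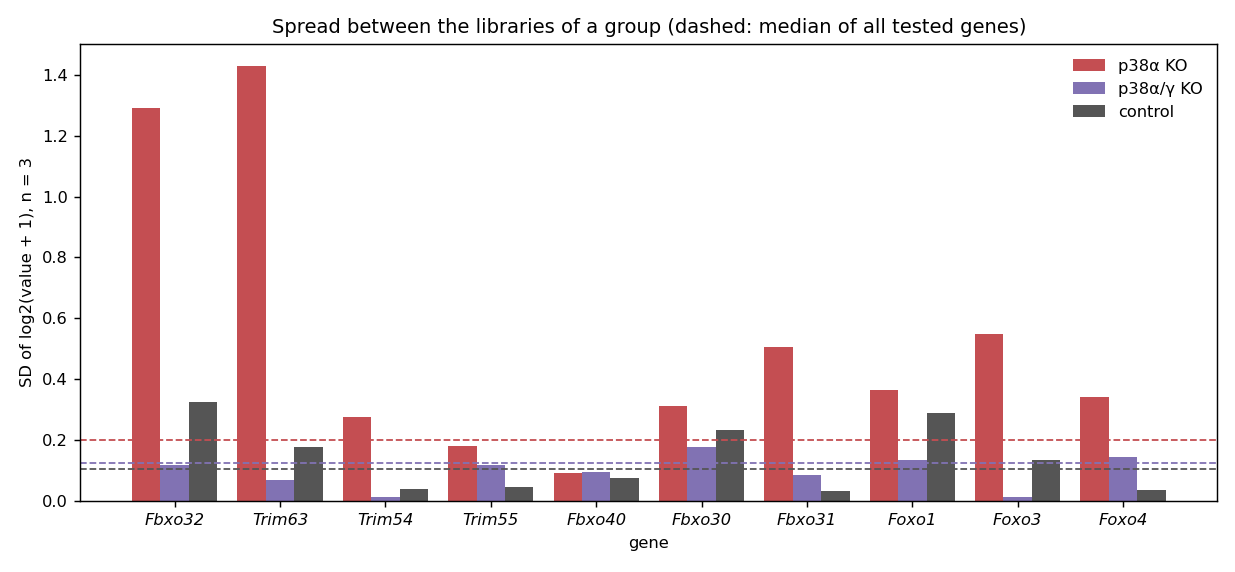
SD of log2(value + 1) over the 3 libraries of the p38α KO, the p38α/γ KO and the control (vertical axis, from 0) for each of the 10 genes; dashed lines mark the median SD of all tested genes in the group of the same colour. Fbxo32 (1.29) and Trim63 (1.43) stand far above the p38α KO median of 0.199, and Fbxo40 (0.0899) lies below it.

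All 10 atrophy genes had their lowest p38α KO value in library 1, as did 41.6% of all tested genes, and 8 had their highest in library 3, against 36.2% of all tested genes. The exceptions were Fbxo40 and Trim55, which were highest in library 2. Companion lists of muscle genes leaned the same way, whether or not they hold FoxO genes. Library 1 was lowest for 74.2% of 31 FoxO target genes, 76.5% of 17 SCF core and ubiquitin genes, 69.2% of 26 other muscle ubiquitin ligases, 66.7% of 18 MuRF partners and titin M-line genes and 52.0% of 25 FoxO regulators. Library 3 was highest for 71.0%, 70.6%, 50.0%, 55.6% and 56.0% of the same lists. The macrophage markers were lowest in library 1 in 1 of 12 cases, and 0 of 12 were highest in library 3, while 7 of the 8 fibre markers were lowest in library 1 and highest in library 3. The 8 slow fibre markers (Myh7, Tnnt1 and others) summed to 6424, 4324 and 1629 in p38α KO libraries 1, 2 and 3, to 5068 to 6054 in the p38α/γ KO and to 2832 to 4352 in the controls. None of the slow fibre markers was lowest in library 1. The part of fibre, slow fibre or macrophage RNA in the order of the libraries was not tested.

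Of the 7 companion genes with the widest p38α KO range, picked after their values were seen, 4 had this order (Mstn, Fkbp5, Sesn1 and Eif4ebp1) and 3 did not. Mstn, which encodes the growth inhibitor myostatin, measured 7.30, 25.3 and 51.6 in p38α KO libraries 1, 2 and 3 and 25.5, 15.5 and 19.2 in the p38α/γ KO, against 47.2, 54.5 and 51.7 in the controls. Fkbp5, a glucocorticoid-induced cochaperone that favours Akt dephosphorylation, measured 37.1, 137 and 233 in the p38α KO and 76.4, 83.0 and 65.0 in the p38α/γ KO, against 67.7, 105 and 63.3 in the controls. Sesn1, which encodes the stress-induced mTORC1 inhibitor sestrin 1, measured 23.4, 51.7 and 103.9 in the p38α KO and 38.8, 34.0 and 37.5 in the p38α/γ KO, against 31.5, 34.9 and 26.1 in the controls. Against the controls these genes differed: Mstn lay below or within the control range in every p38α KO library but 2 of the 3 Sesn1 values lay above it. Myom3, an M-band gene, ran the opposite way in the p38α KO, at 124, 74.8 and 32.0 in libraries 1, 2 and 3. Ddit4 was highest in library 2 (15.8, 58.0 and 46.8), and Ankrd2 was lowest in library 3 (257, 277 and 97.1).

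The genes most like Fbxo32 and Trim63 in pattern over the 9 libraries were not among the atrophy genes described here. Whether the genes named below have a part in atrophy, ubiquitin or p38 biology was not tested. Likeness was measured as Pearson's r of log2(value + 1), as a description over libraries that share 3 groups and 1 normalisation. For Fbxo32 the 5 most like were Nub1 (r = 0.995), Ttc33 (0.984), Prmt5 (0.981), Npc1 (0.980) and Mknk1 (0.977). With p38α KO libraries 1 and 3 left out, the farthest from the median, r lay between 0.915 and 0.986 for these 5 genes over the 7 libraries left. Nub1 measured 46.2, 68.4 and 80.4 in the p38α KO and 57.2, 58.4 and 59.5 in the p38α/γ KO, against 68.5, 59.7 and 65.4 in the controls, which is the Fbxo32 order, apart from p38α/γ KO libraries 1 and 2, over a much narrower range. For Trim63 they were Rpf1 (0.974), Sec23ip (0.973), Sugp1 (0.970), Elp3 (0.970) and Gm4737 (0.969). Without p38α KO libraries 2 and 3, r lay between 0.797 for Rpf1 and 0.973 for Gm4737.

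The other MuRF genes were lower in the knockouts, and the fall passed the test for Trim55 in the p38α/γ KO. Trim55 encodes MuRF2, which sits on microtubules and titin and takes part in sarcomere assembly (ENSMUSG00000060913; chromosome 3, 19644474 to 19692421, plus strand). It measured 39.0, 50.1 and 46.0 in the p38α KO and 41.7, 35.8 and 36.8 in the p38α/γ KO, against 55.1, 53.0 and 51.8 in the controls. All 6 knockout libraries lay below all controls. The p38α/γ KO fall was 1.39-fold (log2 −0.48, SE 0.105, limma adjusted p = 0.0142). That call was lost without p38α/γ KO library 2 (adjusted p = 0.0640), without its library 3 (0.0573) or without control library 1 (0.0572). In the p38α KO the change was log2 −0.25 (95% interval −0.48 to −0.01, adjusted p = 0.131).

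Trim54 encodes MuRF3, which stabilises microtubules and works with MuRF1 on myosin (ENSMUSG00000062077; chromosome 5, 31116712 to 31137630, plus strand). Trim54 measured 249.3, 309 and 365 in the p38α KO and 318, 313 and 319 in the p38α/γ KO, against 374, 395 and 386 in the controls. Again no knockout library reached a control, although p38α KO library 3 came close. The change was log2 −0.34 in the p38α KO (95% interval −0.61 to −0.06, limma adjusted p = 0.0844) and −0.28 in the p38α/γ KO (95% interval −0.56 to −0.01, adjusted p = 0.115), and neither passed. The p38α/γ KO change passed without p38α KO library 1 (adjusted p = 0.0138). Without p38α KO library 3 both changes passed, the p38α KO one at log2 −0.47 (adjusted p = 0.0124) and the p38α/γ KO one at −0.28 (adjusted p = 0.0429).

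Neither of the remaining F-box genes passed the same test in either knockout in the fit of all 9 libraries. Fbxo30 encodes MUSA1, an atrophy ligase held down by BMP and Smad signalling (ENSMUSG00000047648; chromosome 10, 11281330 to 11298052, plus strand). Fbxo30 measured 15.9, 17.5 and 24.5 in the p38α KO and 16.7, 13.2 and 16.3 in the p38α/γ KO, against 23.6, 17.1 and 18.4 in the controls. The p38α KO libraries overlapped the controls, and the p38α/γ KO libraries lay just below them. The change was log2 −0.04 in the p38α KO (limma adjusted p = 0.890) and −0.33 in the p38α/γ KO (adjusted p = 0.178).

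Fbxo31 encodes the F-box protein of an SCF ligase for cyclin D1 (ENSMUSG00000052934; chromosome 8, 121549440 to 121578806, minus strand). Its values were 133, 238 and 251 in p38α KO libraries 1, 2 and 3 and 202, 194 and 218 in the p38α/γ KO, against 176, 168 and 171 in the controls. All 3 p38α/γ KO libraries were above the controls, and those of the p38α KO were on both sides of them. Neither change passed, at log2 0.22 in the p38α KO (limma adjusted p = 0.477) and 0.25 in the p38α/γ KO (adjusted p = 0.366). Both passed without p38α KO library 1, at log2 0.51 in the p38α KO (adjusted p = 0.00253) and 0.25 in the p38α/γ KO (adjusted p = 0.0137). Fbxo31 lies inside the annotated span of Gm20388, on the opposite strand (chromosome 8, 119910841 to 124345722, plus strand). Gm20388, named here after its values were seen, measured 52.6, 30.5 and 54.6 in the p38α KO and 37.99, 50.4 and 57.6 in the p38α/γ KO, against 0.0203, 0.0197 and 2.67 in the controls, where libraries 1 and 2 were at the lowest value of the library. Library preparation kept the strand per the labels' protocols, but the strand setting of the counting is not given in the sources used here. Only the spans of these genes were compared, not their exons, so whether they share reads is not known.

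Among the FoxO genes, Foxo1 rose in the p38α/γ KO and Foxo4 fell in the p38α KO, both just past the threshold. Foxo1, the FoxO factor most tied to fasting metabolism in muscle (ENSMUSG00000044167; chromosome 3, 52268336 to 52353221, plus strand), measured 38.3, 53.0 and 63.6 in the p38α KO and 49.1, 57.0 and 58.6 in the p38α/γ KO, against 30.8, 45.6 and 33.7 in the controls. All p38α/γ KO libraries lay above the controls, and p38α KO library 1 lay below control library 2. The rise in the p38α/γ KO was 1.501-fold (log2 0.59, SE 0.190, limma adjusted p = 0.0477). The p38α KO change was log2 0.47 (95% interval 0.05 to 0.90, adjusted p = 0.111), and without p38α KO library 1 it was log2 0.67 (adjusted p = 0.0188). The Foxo1 call was lost without p38α KO library 2 (adjusted p = 0.0673), without p38α/γ KO library 1 (0.0595), 2 (0.140) or 3 (0.140), and without control library 1 (0.158) or 3 (0.137). It also just missed the threshold with TMM factors (0.0512), median-of-ratios scaling (0.0505) or no trend (0.0583).

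Foxo4, a forkhead factor under the same Akt control, is the only one of the 10 genes on the X chromosome (ENSMUSG00000042903; X, 101254528 to 101260873, plus strand). It measured 102, 152 and 157 in p38α KO libraries 1, 2 and 3 and 175, 144 and 156 in the p38α/γ KO, against 195, 193 and 186 in the controls. All 6 knockout libraries lay below the controls, whose own SD was 4.83 around a mean of 191. The p38α KO fall was 1.42-fold (log2 −0.50, SE 0.152, limma adjusted p = 0.0475), and the p38α/γ KO change was log2 −0.28 (95% interval −0.62 to 0.06, adjusted p = 0.197). Leaving out p38α KO library 1 gave a p38α KO fall of log2 −0.31 (adjusted p = 0.0381), and the p38α/γ KO change then passed as well (adjusted p = 0.0190). This call was lost without p38α KO library 2 (adjusted p = 0.0562), p38α/γ KO library 1 (0.0583), 2 (0.0616) or 3 (0.0737), or control library 1 (0.128), 2 (0.120) or 3 (0.114). It was lost as well with median-of-ratios scaling (0.0513), quantile normalisation (0.114), no trend (0.0607), the 6 libraries alone (0.0920) and the replicate block (0.0846).

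Foxo3, the FoxO factor best known for driving Fbxo32 and autophagy genes in mouse muscle (ENSMUSG00000048756; chromosome 10, 42181841 to 42276755, minus strand), measured 26.5, 47.2 and 55.6 in the p38α KO and 38.1, 38.5 and 37.9 in the p38α/γ KO, against 35.1, 41.3 and 35.0 in the controls. The p38α/γ KO libraries lay within the control range, and the p38α KO libraries lay on both sides of it. The change was log2 0.15 in the p38α KO (95% interval −0.34 to 0.64, limma adjusted p = 0.666) and 0.04 in the p38α/γ KO (95% interval −0.45 to 0.53, adjusted p = 0.901). The p38α KO change passed at log2 0.46 without library 1 of that group (adjusted p = 0.0134). Among the genes most like Foxo1 in pattern over the 9 libraries were Mfsd2b (r = 0.964), Erf (0.964), Luc7l (0.955) and Dazap2 (0.952), and r lay between 0.944 and 0.964 without control libraries 1 and 3.

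**Figure D3:**
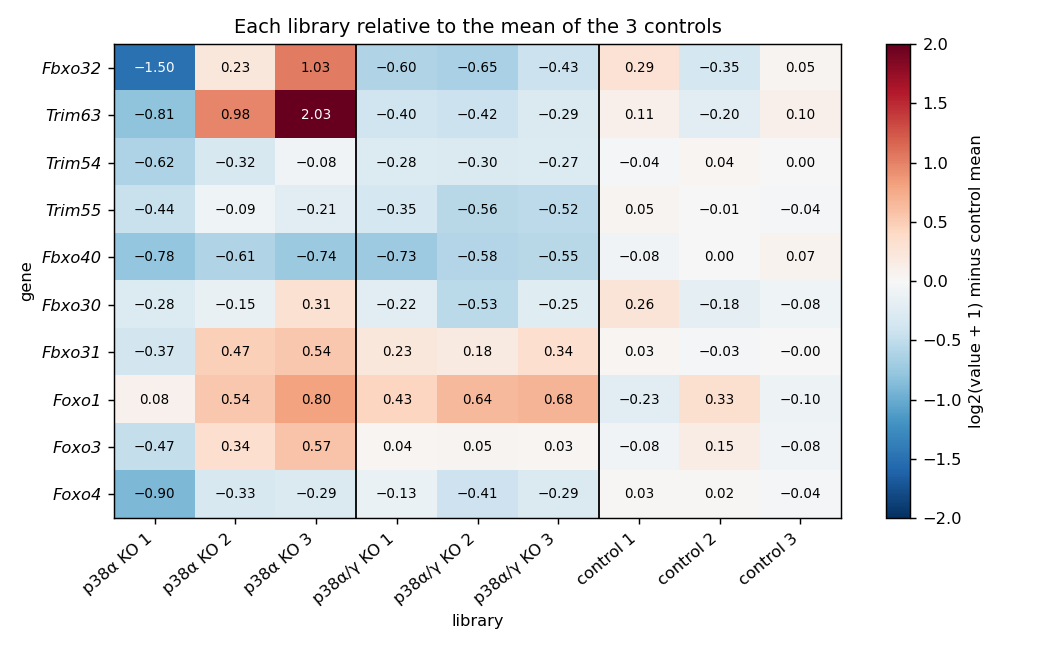
Difference of log2(value + 1) from the mean of the 3 controls (colour and printed number) for the 10 genes (rows) in each library (columns: p38α KO, p38α/γ KO, control). In p38α KO libraries 1 and 3 Trim63 is at −0.81 and 2.03 and Fbxo32 at −1.50 and 1.03, while Fbxo40 lies between −0.78 and −0.55 in all 6 knockout libraries.

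Counted together, 2 of the 10 genes passed in the p38α KO, both lower (Fbxo40 and Foxo4), where 17.8% of all tested genes passed, 7.32% higher and 10.4% lower. In the p38α/γ KO 3 passed, 2 lower (Fbxo40 and Trim55) and 1 higher (Foxo1), where 25.6% of all tested genes passed, 14.4% lower and 11.2% higher. These shares are close to those of all genes. Values did not overlap the controls for 4 of the 10 genes in the p38α KO (38.6% of all tested genes) and for 9 of 10 in the p38α/γ KO (55% of all tested genes), Foxo3 being the exception. The median log2 change of the 10 genes was −0.06 in the p38α KO (all tested genes 0.008), and the p38α/γ KO median was −0.31 (all tested genes 0.016). Both comparisons share the control libraries.

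Set directly against each other, the knockouts differed in none of the 10 genes. Of all tested genes, 0.442% passed in that comparison (0.122% higher and 0.32% lower in the p38α KO), 0 of the 10 atrophy genes passed by limma, and 0 of 10 had an unadjusted p below 0.05. The largest differences were those of Trim63 (843 ± 675 in the p38α KO, against 294 ± 14.4 in the p38α/γ KO; log2 1.11, 95% interval −0.09 to 2.31, adjusted p = 0.450) and Fbxo32 (1016 ± 723 in the p38α KO, against 579 ± 47.9 in the p38α/γ KO; log2 0.48, 95% interval −0.63 to 1.60, adjusted p = 0.731; SD, n = 3 each). These intervals include both no difference and a change of several fold. Without p38α KO library 1, Trim63 was higher in the p38α KO by log2 1.88 (adjusted p = 0.00392) and Fbxo32 by 1.19 (adjusted p = 0.0146). Fbxo31 (log2 0.26, adjusted p = 0.0454), Foxo3 (0.42, adjusted p = 0.0259) and Trim55 (0.33, adjusted p = 0.0361) then also passed, 5 of 10 where 14.2% of all tested genes did. Against control, leaving that library out gave 6 of 10 in the p38α KO, beside 17.8% of all tested genes, and 6 of 10 in the p38α/γ KO, beside 41%. Fits of only the 6 libraries compared gave 1 of 10 for the p38α KO (10.4% of all tested genes), 8 for the p38α/γ KO (42.1%) and 0 between the knockouts (0.167%). Array weights, which weigh each library by its spread, gave 7 (38.9%), 6 (49.1%) and 3 (24.3%), and a replicate block gave 1 (11.8%), 3 (17.7%) and 0 (0.244%).

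**Figure D4:**
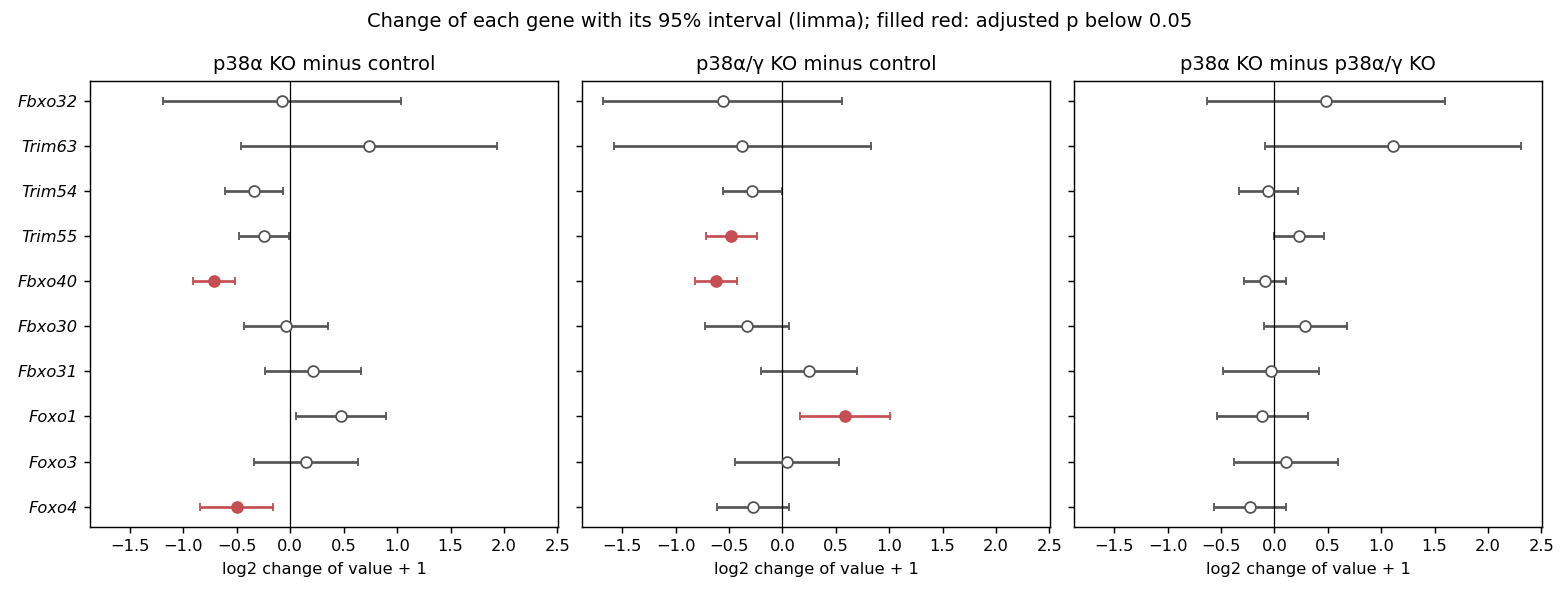
Log2 change of value + 1 with its 95% interval from limma (horizontal axis) for the 10 genes in p38α KO minus control, p38α/γ KO minus control and p38α KO minus p38α/γ KO; filled red points have an adjusted p below 0.05. Fbxo40 is filled in both knockout comparisons with control (−0.71 and −0.62), and no gene is filled between the knockouts.

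Values per kilobase of merged annotated exons give a rough scale for comparing genes, since that length counts every annotated exon, used in muscle or not. On it Trim54 was the highest in the controls at 268 ± 7.41. It was followed by Trim63 at 135 ± 15.9 and Fbxo32 at 124 ± 27.1, whose ranges overlapped, then by Fbxo40 at 84.8 ± 4.34, Foxo4 at 54.9 ± 1.39, Fbxo31 at 31.3 ± 0.736 and Trim55 at 20.1 ± 0.642. Foxo3 (4.91 ± 0.478), Foxo1 (4.23 ± 0.905) and Fbxo30 (3.79 ± 0.664) came last (value per kilobase, SD, n = 3). The range of Foxo1 overlapped those of Foxo3 and Fbxo30, which did not overlap each other. In p38α KO library 3 Trim63 reached 548.5 per kilobase, above every control value of Trim54 on the same scale.

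Beyond the 10 genes, other ubiquitin ligases and adaptors of muscle had more lower than higher calls, as all tested genes did. Of 26 tested, 2 passed as higher and 7 as lower in the p38α KO (34.6%, beside 17.8% of all tested genes), with a median of log2 −0.01. The p38α/γ KO had 3 higher and 5 lower (30.8%, beside 25.6%), with a median of −0.14. Wwp1, a HECT-domain ligase, fell 2.10-fold in the p38α KO (145 ± 37.2, against 300 ± 17.1 in the controls; limma adjusted p = 0.00647) and 2.25-fold in the p38α/γ KO (133 ± 20.6; adjusted p = 0.00515). Of the related HECT ligases, Huwe1 fell 1.40-fold in the p38α KO and 1.34-fold in the p38α/γ KO (adjusted p = 0.00932 and 0.0140), and Nedd4 fell 1.49-fold and 1.68-fold in the same order (adjusted p = 0.0249 and 0.00900). Klhl40, a kelch adaptor that stabilises thin filaments, rose 1.81-fold in the p38α KO (187, 208 and 191, against 108, 105 and 110 in the controls; adjusted p = 0.000928) and 1.53-fold in the p38α/γ KO (149, 182 and 166; adjusted p = 0.00408). With p38α KO library 1 left out, the p38α KO count was 4 higher and 7 lower (42.3%, beside 17.8% of all tested genes). The p38α/γ KO count was then 5 higher and 11 lower (61.5%), where 41% of all tested genes passed.

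Genes of the SCF core and of ubiquitin itself were lower, with 1 exception, where they passed. Of 17, 5 were lower and 0 higher in the p38α KO (median log2 −0.15), so that 29.4% were lower, beside 10.4% of all tested genes. In the p38α/γ KO 6 were lower and 1, Nedd8, higher (median −0.21), with 35.3% lower, beside 14.4% of all tested genes; Nedd8 is named after its value was seen. Skp1a, which encodes the adaptor that holds F-box proteins, fell 1.299-fold in the p38α KO (175 ± 6.93, against 228 ± 9.01 in the controls; limma adjusted p = 0.0106) and 1.18-fold in the p38α/γ KO (adjusted p = 0.0436). The conjugating-enzyme genes Ube2b and Ube2d3 fell 1.38-fold and 1.44-fold in the p38α KO (adjusted p = 0.0298 and 0.0326), and Usp19, a deubiquitinase tied to muscle wasting, fell 1.25-fold (adjusted p = 0.0322). In the p38α/γ KO, Ube2d3 fell 1.52-fold (adjusted p = 0.0172), Ube2b 1.32-fold (adjusted p = 0.0387), Ube2e1 1.498-fold (adjusted p = 0.0272) and Usp19 1.25-fold (adjusted p = 0.0273). The SCF scaffold gene Cul1 fell 1.42-fold in the p38α KO and 1.43-fold in the p38α/γ KO (adjusted p = 0.0352 and 0.0269), and Ube2e1 missed the threshold in the p38α KO (adjusted p = 0.0668). Without p38α KO library 1, 0 were higher and 6 lower in the p38α KO (35.3%, beside 17.8% of all tested genes). The p38α/γ KO then had 1 higher and 8 lower (52.9%, beside 41%).

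FoxO target genes passed about as often as all tested genes. Of 31, 5 were higher and 1 lower in the p38α KO (19.4%, beside 17.8% of all tested genes; median log2 0.09). The p38α/γ KO had 6 higher and 2 lower (25.8%, beside 25.6%; median 0.10). By direction, 16.1% and 19.4% of the list were higher, beside 7.32% and 11.2% of all tested genes; the lower ones, named after their values were seen, were Cat in both knockouts and Atg12 in the p38α/γ KO. Gadd45a, a stress gene raised in denervated muscle, measured 94.2, 82.7 and 179.6 in the p38α KO and 63.8, 79.7 and 77.1 in the p38α/γ KO, against 30.2, 15.9 and 23.6 in the controls. No knockout library overlapped a control, and the rise was 4.81-fold in the p38α KO (limma adjusted p = 0.00198) and 3.16-fold in the p38α/γ KO (adjusted p = 0.00644). Cdkn1a, the cell-cycle inhibitor p21, rose 2.69-fold in the p38α KO (128, 76.3 and 78.1, against 35.6, 27.9 and 37.4 in the controls; adjusted p = 0.00229) and 1.57-fold in the p38α/γ KO (adjusted p = 0.0341). Il6ra, a receptor chain for interleukin 6, rose 2.42-fold in the p38α KO and 2.48-fold in the p38α/γ KO (adjusted p = 0.0108 and 0.00932). Ppargc1a, the coactivator of mitochondrial biogenesis, rose 1.60-fold and 1.44-fold in the same order (adjusted p = 0.00731 and 0.0163), and Angptl4, a lipoprotein lipase inhibitor, rose 1.48-fold and 1.56-fold (adjusted p = 0.0269 and 0.0151). Leaving out p38α KO library 1, the p38α KO count was 9 higher and 0 lower (29.0%, beside 17.8% of all tested genes), and that of the p38α/γ KO 8 higher and 5 lower (41.9%, beside 41%).

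Of 25 tested FoxO regulators, 0 were higher and 6 lower in the p38α KO (24.0%, beside 17.8% of all tested genes; median log2 −0.09). Of the same genes, 2 were higher and 6 lower in the p38α/γ KO (32.0%, beside 25.6%; median −0.06). The list mixes genes that restrain FoxO factors and genes that favour them, so its count has no single direction of FoxO activity. The acetyltransferase gene Ep300 fell 1.53-fold in the p38α KO and 1.54-fold in the p38α/γ KO (limma adjusted p = 0.0186 and 0.0153). The deacetylase gene Sirt2 fell 1.24-fold in the p38α KO and 1.19-fold in the p38α/γ KO (adjusted p = 0.0190 and 0.0321). The deubiquitinase gene Usp7 fell 1.31-fold in the p38α KO (adjusted p = 0.0191), and its p38α/γ KO change missed the threshold (log2 −0.23, adjusted p = 0.0835). Prkaa2, the AMPK catalytic subunit of muscle, measured 106, 187 and 219 in the p38α KO and 146, 112 and 129 in the p38α/γ KO, against 269, 265 and 263 in the controls. Its fall was 2.06-fold in the p38α/γ KO (adjusted p = 0.0125) and its p38α KO change missed the threshold (log2 −0.70, adjusted p = 0.0561). Prkag3, an AMPK subunit of fast fibres, fell 1.66-fold (adjusted p = 0.0174) and Ywhah, a 14-3-3 gene, rose 1.31-fold (adjusted p = 0.0267) in the p38α/γ KO, and neither passed in the p38α KO (adjusted p = 0.197 and 0.152). Without p38α KO library 1 the p38α KO count was 3 higher and 7 lower (10 of 25, beside 17.8% of all tested genes), and the p38α/γ KO count was 2 higher and 10 lower (48.0%, beside 41%).

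MuRF binding partners and titin M-line genes mostly did not pass in the p38α KO, with 0 higher and 2 lower of 18 (11.1%, beside 17.8% of all tested genes; median log2 −0.11). In the p38α/γ KO 1 was higher and 4 were lower (27.8%, beside 25.6%; median −0.20). Without p38α KO library 1 the p38α/γ KO counts were 2 and 7 (50.0%, beside 41%), and those of the p38α KO stayed at 0 and 2 (11.1%, beside 17.8%). Neb, the giant thin-filament protein nebulin, fell 1.71-fold in the p38α KO (2233 ± 611, against 3707 ± 198 in the controls; limma adjusted p = 0.0229) and to 2059 ± 110.1 in the p38α/γ KO (log2 −0.85; adjusted p = 0.0144). Mybpc2, the fast myosin-binding protein C, fell 1.87-fold in the p38α/γ KO (adjusted p = 0.0354) and measured 4331 ± 1694 in the p38α KO, against 6329 ± 277 in the controls (adjusted p = 0.122). Ttn, titin itself, measured 4770 ± 492 in the p38α KO, against 5955 ± 162 in the controls (adjusted p = 0.0885). Telo2, the 1 higher call of the list, rose 1.44-fold in the p38α/γ KO (adjusted p = 0.0393, and 0.584 in the p38α KO). Its tie to MuRF proteins or the M-line was not checked here. The falls of Neb and Mybpc2 stand beside the lower fibre marker sums of both knockouts given above, where 1 and 0 of the 8 markers were called lower. The part of those sums was not tested.

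**Figure D5:**
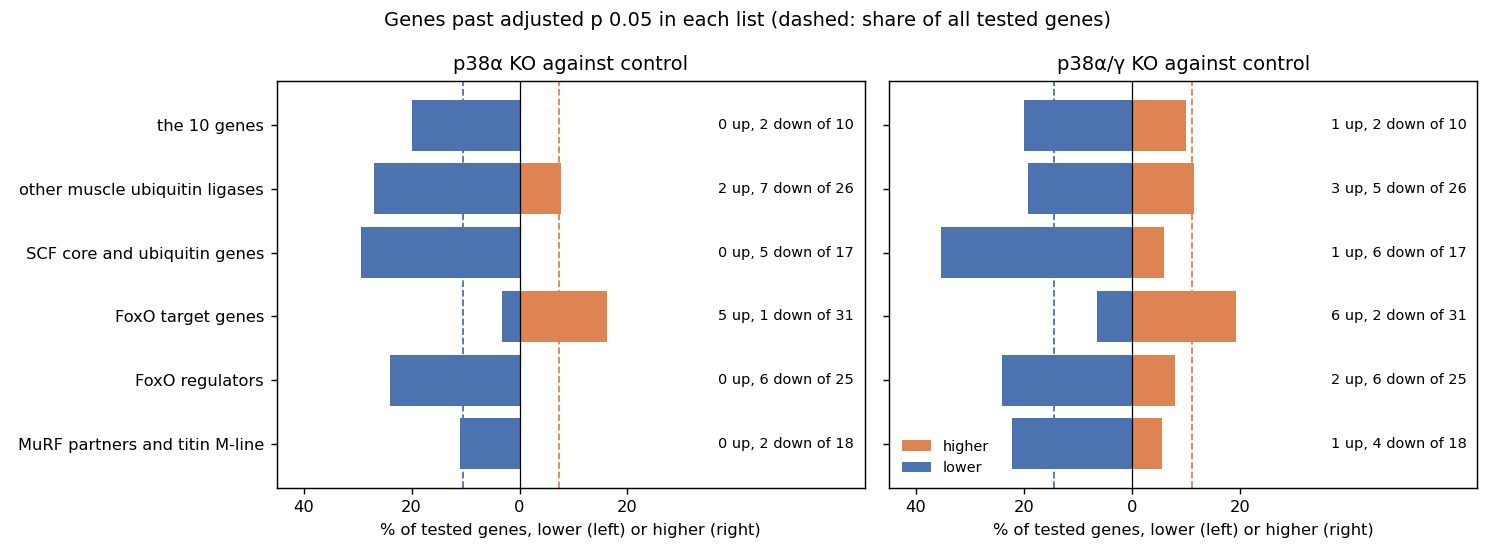
Share of the tested genes of each list that passed at an adjusted p below 0.05 (horizontal axis, percent; lower to the left, higher to the right) in the p38α KO and the p38α/γ KO against control; dashed lines mark the shares of all tested genes. Of the lists, the FoxO target genes alone have more higher than lower calls in both panels (5 and 1, 6 and 2), and the 10 atrophy genes have 0 and 2 and 1 and 2.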

How the data were processed

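Reads were 51 bases, from 100 ng of RNA with an integrity number above 8, per the labels' protocols. Tools named in the submitters' processing notes are RSEM 1.3.1, CASAVA 1.8, limma and cutadapt, with the build GRCm38; neither their order nor an annotation release is named. The authors deposited 1 signal value per gene and library, named as normalised counts; their scaling and filter are not given in the sources used here. Every deposited value is a whole number plus 0.5, times a step of its library, within 0.01 reads. The read sums in the report come from this pattern, whose meaning no source states, and no count model was fitted.

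A gene was kept if 3 or more libraries reached a value of 1 (13137 of 13179). The test was limma (3.58.1, R 4.3.3) on log2(value + 1), in 1 fit of all 9 libraries with a mean-variance trend. P-values were adjusted by Benjamini-Hochberg over all tested genes of a comparison and called below 0.05; fold changes are of value + 1 and understate changes of low genes. An exact permutation test of 3 against 3 cannot go below 0.1. Fit scripts were tested on simulated data. The atrophy genes and the gene and marker lists were chosen with earlier results of these data known. From each companion list the up to 4 genes with the lowest adjusted p in each knockout were named, and for 3 atrophy genes the 5 most correlated genes; some genes this rule picks are not reported here. Coordinates come from GENCODE M21 (GRCm38), promoters from RefSeq (GRCm38.p6). All 9 sample columns were used. Figures used matplotlib 3.10.9.

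Same-numbered libraries of the p38α/γ KO and control deviated together from their group means (correlations 0.111, 0.124 and 0.148), so a replicate block was tried; the pairing comes from the data, not the labels. With the replicate block the same 3 atrophy genes passed in the p38α/γ KO.

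Alternatives changed the low-value filter, pseudocount, scaling, spread estimate, libraries fitted and block, and left out each library.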

Additional observations from a re-analysis of the deposited data

How the results depend on the processing

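The number of atrophy genes passing in the p38α KO (2) fell to 1, Fbxo40, with median-of-ratios scaling, quantile normalisation, no trend, the 6 libraries alone or the replicate block, and was 7 with array weights. In the p38α/γ KO (3) it was 6 with array weights, 8 with the 6 libraries alone and still 3 with the replicate block. Between the knockouts (0) it was 3 with array weights, which gave p38α KO library 1 a weight of 0.173. Leaving out 1 library at a time gave 1 to 6, 1 to 6 and 0 to 5. The same-number correlations behind the block were −0.0858, −0.0866 and 0.0951 for the p38α KO and control and −0.331, −0.228 and 0.0885 between the knockouts, so these samples share only a number. Signs turned only in changes that missed the threshold, apart from Fbxo31 between the knockouts. Fbxo32 in the p38α KO was log2 0.027 with quantile normalisation and 0.22 with array weights, and −0.63 to 0.63 with 1 library left out. Other such ranges were −0.22 to 0.090 for Fbxo30 and −0.064 to 0.46 for Foxo3 in the p38α KO. Between the knockouts they were −0.074 to 1.19 for Fbxo32, −0.20 to 0.26 for Fbxo31, −0.27 to 0.083 for Foxo1, −0.11 to 0.42 for Foxo3 and −0.19 to 0.085 for Trim54. Quantile normalisation gave 0.0079 for Fbxo31 and 9.9e-05 for Trim54 between the knockouts, and array weights 0.17 for Fbxo31. The cause of these moves was not tested. Of the other results, 530 kept direction and side of the threshold, 29 passed only in the alternative and 24 only in the fit reported. The count-based edgeR and DESeq2 alternatives were not run, since the deposited values are not counts. With 3 libraries a group, changes below about the intervals given were not detectable.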
